A study of Mus musculus with 12 samples.

Results

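Glutathione S-transferases are the enzymes that join the tripeptide glutathione to reactive, fat-soluble molecules, and the genes described here are 10 members of that family among the 55487 genes of a count table: Gstm1, Gstm2, Gstm4, Gstm5, Gsta4, Gstp1, Gsto1, Gstt1, Gstt2 and Mgst1. They were found by symbol from mouse Ensembl identifiers. The family was chosen by a response already seen in these data: the falls of Gstm1 and Gstm2 with transforming growth factor β (TGFβ) in mock-transduced cells were known when it was proposed. Values of TGFβ against none in the mock libraries are therefore given as a description, with no test read. TGFβ is tested between the 6 libraries of the other construct, but the spread in that test is estimated from all 12 libraries, mock included. Of the 10 members, 8 had enough reads to be tested, among 12897 genes. Gstm4 had 0 reads in all 12 libraries, and Gstt1 had 3 reads in all, each of them in mock replicate 2.

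The libraries came from im_TEC, a line of conditionally immortalised mouse kidney tubular epithelial cells. It carries the SV40 large T antigen, was kept in 10 ng/mL interferon γ at 33 °C, and spent 7 interferon-free days at 37 °C before the experiments. Cells had been transduced with a mock construct or with one for Nnmt (nicotinamide N-methyltransferase), and were puromycin-selected. Each kind was left untreated or given TGFβ, a cytokine used in culture to drive fibrotic change, at 10 ng/mL for 48 h, which gave 4 groups of 3 libraries: mock, mock with TGFβ, Nnmt-OE and Nnmt-OE with TGFβ. All groups share the T antigen, the interferon history and the puromycin selection. The titles write Nnmt-OE and another label field writes Nmt-OE. For the promoter of the construct and the number of clones, the sources used here give nothing. The labels do not tie the 3 replicates to separate cultures, and a p-value then measures only how these samples scatter, which may be technical.

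Libraries held 4733846 to 7247413 reads given to genes. Levels are in CPM, read counts scaled to a common library size, and a 3′ tag method gives about one tag per transcript, so levels of different genes are compared without dividing by length. Mean Nnmt levels were 20.3, 30.3, 25.3 and 27.6 CPM in mock, mock with TGFβ, Nnmt-OE and Nnmt-OE with TGFβ. A tag at the native 3′ end need not count the construct, so these values do not check the label, and the construct groups are called labelled Nnmt-OE. Of 12 known TGFβ response genes, 6 rose (among them Acta2, Tagln, Pmepa1, Ccn2 and Postn) and 2 fell (Id2 and Id4) with TGFβ in labelled Nnmt-OE cells. Acta2 rose there by 2.40 on the log2 scale, and its difference in mock cells was 1.96. Of 18 tubular markers 8 had enough reads to be tested, among them Pax8, Pax2, Cdh16, Lrp2 and Aqp1, with Slc5a2 at most 2.92 CPM. Cubn, Slc12a1, Krt18 and Krt19 were not tested and reached at most 2.38 CPM, and Slc34a1 had 1 read in all. Another 5 of the 18 (Cdh1, Epcam, Umod, Slc12a3 and Aqp2) had 0 reads in every library. Endothelial markers had 4 of 5 genes at 0 and a summed level of at most 0.165 CPM. Mock replicate 1, mock with TGFβ replicate 3 and labelled Nnmt-OE with TGFβ replicate 3 stood apart on principal components. Submitters' library codes run in one block per group, so handling cannot be told apart from construct or treatment.

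The classes of the family differ in sequence and in favoured substrates. The mu (Gstm), alpha (Gsta), pi (Gstp), omega (Gsto) and theta (Gstt) classes are soluble, and Mgst1 is a membrane protein of the endoplasmic reticulum and outer mitochondrial membrane. In the kidney tubule they take part in the handling of drugs, lipid peroxidation products and other electrophiles, and the conjugates leave the cell by transporters and are trimmed to mercapturates. The transcription factor NRF2 drives many of these genes through the antioxidant response element, and AP-1, the aryl hydrocarbon receptor and SMAD proteins bind other short motifs.

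Promoter windows are shown for the 3 members that passed the TGFβ test (Gstm1, Gstm2 and Gsto1) and for the tested mu-class neighbour that did not (Gstm5), so that their motif content can be set beside their responses. Each holds the 250 bases before the start site, read 5′ to 3′ on the gene's strand from RefSeq on GRCm38.p6. Lower case is the promoter, and capitals mark matches to the antioxidant response element core or the AP-1 motif. The windows lie at chr3:108017974-108018223 (minus strand) for Gstm1, chr3:107986421-107986670 (minus) for Gstm2, chr3:107895604-107895853 (plus) for Gstm5 and chr19:47854723-47854972 (plus) for Gsto1.
Gstm1: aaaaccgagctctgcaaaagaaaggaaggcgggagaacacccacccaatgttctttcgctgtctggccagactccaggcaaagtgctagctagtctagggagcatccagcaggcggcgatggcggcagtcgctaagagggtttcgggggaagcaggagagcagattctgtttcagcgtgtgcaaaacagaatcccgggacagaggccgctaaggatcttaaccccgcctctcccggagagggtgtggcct
Gstm2: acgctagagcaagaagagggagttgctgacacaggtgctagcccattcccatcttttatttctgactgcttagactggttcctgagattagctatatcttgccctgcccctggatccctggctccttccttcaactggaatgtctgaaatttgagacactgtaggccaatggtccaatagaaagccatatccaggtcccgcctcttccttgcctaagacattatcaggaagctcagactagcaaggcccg
Gsto1: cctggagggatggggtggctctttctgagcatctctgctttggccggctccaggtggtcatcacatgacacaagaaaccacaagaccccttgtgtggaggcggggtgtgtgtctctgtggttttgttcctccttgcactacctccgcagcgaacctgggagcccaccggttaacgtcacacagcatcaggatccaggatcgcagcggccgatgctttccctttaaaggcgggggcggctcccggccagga
Gstm5: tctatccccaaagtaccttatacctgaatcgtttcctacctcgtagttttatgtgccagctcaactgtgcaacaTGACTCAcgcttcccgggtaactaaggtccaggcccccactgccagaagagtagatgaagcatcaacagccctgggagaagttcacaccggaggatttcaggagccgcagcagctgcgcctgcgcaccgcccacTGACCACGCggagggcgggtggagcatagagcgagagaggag

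RefSeq gave windows for 8 of the 10 members, 11 windows in all, and not for Gsta4 and Gstt2. Both strands were searched for 4 motifs: the antioxidant response element core TGACNNNGC, AP-1 TGANTCA, the aryl hydrocarbon receptor core TNGCGTG and the SMAD palindrome GTCTAGAC. These letters occur in 10.2%, 6.75%, 4.1% and 0.167% of 32841 promoter windows of the same length, in that order. The Gstm5 window held TGACCACGC from 42 to 34 bases before the start and TGACTCA from 176 to 170. Mgst1 held the core on the other strand, as GCACGGTCA, from 56 to 48 bases before its start, and Gstp1 held TGAGTCA from 74 to 68. No match overlapped another. The Gstm1, Gstm2 and Gsto1 windows held none of the 4 motifs, which says only that these letters are not in these windows. The windows shown for Gstm1 and Gstm5 had 13 CpG sites each, that of Gsto1 had 12 and that of Gstm2 had 3. RefSeq gives Gstm1 a second start, whose window (chr3:108017819-108018068) had 8 CpG sites and none of the 4 motifs.

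Among the members Gstm1 was by far the most abundant. In mock cells the mean levels ran Gstm1 (824 CPM), Gsto1 (116), Gstm2 (99.2), Gstm5 (62.8), Gstp1 (25.3), Mgst1 (10.3), Gsta4 (7.46) and Gstt2 (3.91). In that order neighbours did not overlap between libraries down to Mgst1, while Mgst1 overlapped Gsta4 and Gsta4 overlapped Gstt2. With TGFβ, Gstm2 and Gstm5 overlapped in both kinds of cell. Reads of the 10 members made up 0.114% ± 0.005 of gene reads in mock and 0.0669% ± 0.0031 in mock with TGFβ (SD, n = 3). The shares were 0.116% ± 0.009 in labelled Nnmt-OE and 0.0664% ± 0.0032 with TGFβ.

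**Figure D1:**
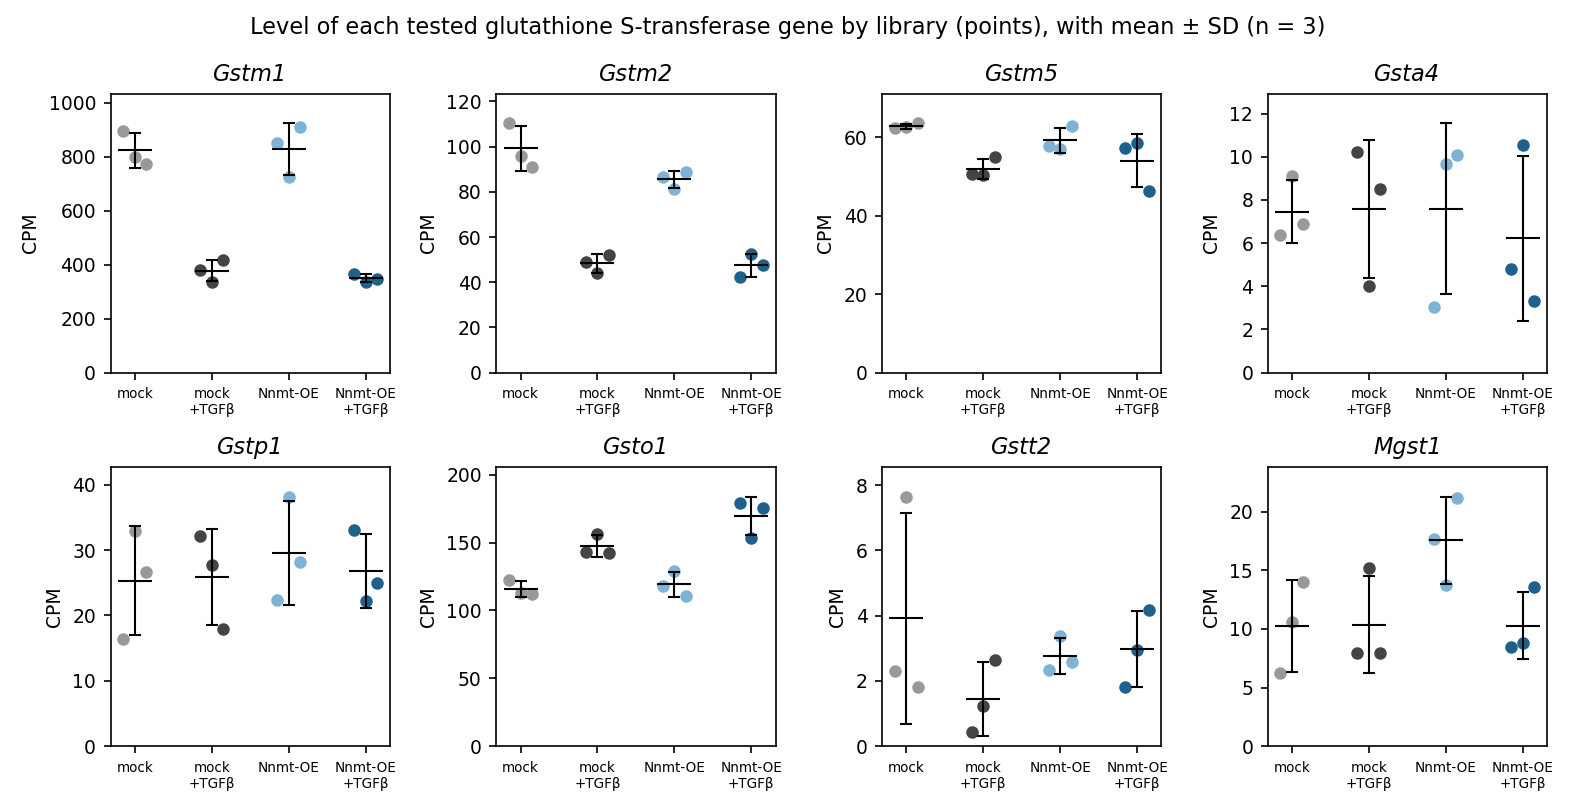
Level in CPM (y axis, from 0, 1 scale per gene) of the 8 tested members in each library (points), with mean ± SD of 3 libraries (bars), by group (x axis). Gstm1 and Gstm2 were lower and Gsto1 higher in the TGFβ libraries of both kinds of cell, without overlap, while Gsta4, Gstp1 and Gstt2 overlapped.

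Of the 8 tested members, 3 passed the TGFβ test in labelled Nnmt-OE cells: Gstm1 and Gstm2 fell and Gsto1 rose. Over all genes 1.4% passed there, 0.651% higher and 0.744% lower. The members' median log2 fold change was -0.21, against -0.0016 for all genes tested. The groups did not overlap for 4 of the 8 (Gstm1, Gstm2, Gsto1 and Mgst1), and for 17.6% of all genes. Since the mock falls of Gstm1 and Gstm2 were known at the choice, these counts and the median are no test of the family. Whether a lower level came from fewer cells of a type or from less RNA per cell cannot be told apart in these bulk samples.

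Gstm1 conjugates many electrophiles and is the main mu-class enzyme of mouse liver. In labelled Nnmt-OE cells it measured 851, 725 and 911 CPM in replicates 1 to 3. With TGFβ it measured 364, 335 and 349 CPM. All 3 treated libraries were below all 3 untreated ones, and the lowest untreated value lay far above the highest treated one. The fall was 2.37-fold (log2 -1.25 ± 0.09 SE, 95% interval -1.43 to -1.06, edgeR quasi-likelihood test, Benjamini-Hochberg adjusted p = 6.97e-13). In mock cells the values were 897, 800 and 774 CPM untreated and 379, 338 and 418 CPM with TGFβ, a difference of -1.12 on the log2 scale. Without the 3 libraries that stood apart the log2 values were -1.24 in labelled Nnmt-OE and -1.13 in mock.

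Gstm2 is the closest of the members to Gstm1 in coding sequence, with 86.0% identity. It measured 86.7, 81.4 and 88.7 CPM in labelled Nnmt-OE replicates 1 to 3 and 42.5, 52.6 and 47.5 CPM with TGFβ. Again no treated library reached an untreated one. The fall was 1.80-fold (log2 -0.85 ± 0.14 SE, 95% interval -1.13 to -0.57, edgeR adjusted p = 0.00012). In mock cells Gstm2 stood at 110.3, 96.1 and 91.2 CPM untreated and at 48.9, 44.0 and 52.0 CPM with TGFβ, a difference of -1.04. Without the 3 libraries that stood apart its log2 values were -0.85 and -1.01.

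Gsto1 encodes an omega-class enzyme that works mainly as a thiol transferase and reduces dehydroascorbate and methylated arsenic. In labelled Nnmt-OE cells it measured 117.9, 129.2 and 110.5 CPM untreated and 179.5, 153.3 and 175.8 CPM with TGFβ. It went the other way from Gstm1 and Gstm2, with every treated library above every untreated one. The rise was 1.42-fold (95% interval 1.22 to 1.65, log2 0.51 ± 0.11 SE, edgeR adjusted p = 0.00582). In mock cells it stood at 122.6, 113.1 and 111.9 CPM untreated and 143.0, 156.6 and 142.1 CPM with TGFβ, a difference of 0.35, also without overlap. The call in labelled Nnmt-OE cells was lost without Nnmt-OE replicate 3 (edgeR adjusted p = 0.0702) and without Nnmt-OE with TGFβ replicate 1 (edgeR adjusted p = 0.0583). Without the 3 libraries that stood apart it was kept (log2 0.48, edgeR adjusted p = 0.00506).

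Gstm5 lies in the mu-class cluster on the other strand from its relatives. It measured 57.9, 57.1 and 62.9 CPM in labelled Nnmt-OE and 57.2, 58.7 and 46.3 CPM with TGFβ. These groups overlapped, and the log2 difference was -0.13 (95% interval -0.42 to 0.16, edgeR adjusted p = 0.819). In mock cells the values were 62.4, 62.6 and 63.6 CPM untreated and 50.6, 50.3 and 55.0 CPM with TGFβ, which did not overlap, with a difference of -0.28. An opposite-strand gene, 4933431E20Rik, overlaps 178 bases (13.9%) of the Gstm5 exons. No strand setting of the counting is given, so reads inside those bases cannot be told apart. In the last 500 bases of the Gstm5 transcript, 0 stretches of 50 bases occurred on the opposite strand of another gene's transcript.

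Mgst1 protects membranes against lipid peroxides. In labelled Nnmt-OE cells it measured 17.7, 13.8 and 21.2 CPM, and 8.43, 8.83 and 13.6 CPM with TGFβ. The groups were just separate, and the log2 difference of -0.78 ± 0.33 SE did not pass (95% interval -1.45 to -0.11, edgeR adjusted p = 0.327). In mock cells it measured 6.22, 10.6 and 14.1 CPM untreated and 7.99, 15.2 and 7.96 CPM with TGFβ, which overlapped, and the difference was 0.01.

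The remaining members overlapped between treated and untreated libraries in both kinds of cell. Gstp1, the pi-class enzyme, ranged from 16.3 to 38.1 CPM over all 12 libraries, with log2 differences of -0.15 in labelled Nnmt-OE (95% interval -0.65 to 0.36, edgeR adjusted p = 0.898) and 0.05 in mock. Gsta4, the alpha-class enzyme for the lipid peroxidation product 4-hydroxynonenal, ranged from 3.04 to 10.6 CPM, with -0.28 (95% interval -1.21 to 0.65, edgeR adjusted p = 0.894) and 0.02. Gstt2, of the theta class, ranged from 0.420 to 7.64 CPM, with 0.10 (95% interval -1.42 to 1.61, edgeR adjusted p = 0.982) and -1.44. Its highest value was in mock replicate 2, and without that library the mock difference was -0.53, while without the 3 libraries that stood apart it was -2.45. At such levels only large differences could be seen. For Gstm4, 0 reads in a library allow up to 3 counts, which is 0.414 to 0.636 CPM depending on the library, and this covers counting error only.

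In mock cells the groups did not overlap for 4 of the 8 (Gstm1, Gstm2, Gstm5 and Gsto1) and for 16.4% of all genes, and the same fit called 1.43% of all genes. The median was -0.13 for the members and -0.00192 for all genes. Since that contrast was used in the choice, these values are a description and no member call is given.

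**Figure D2:**
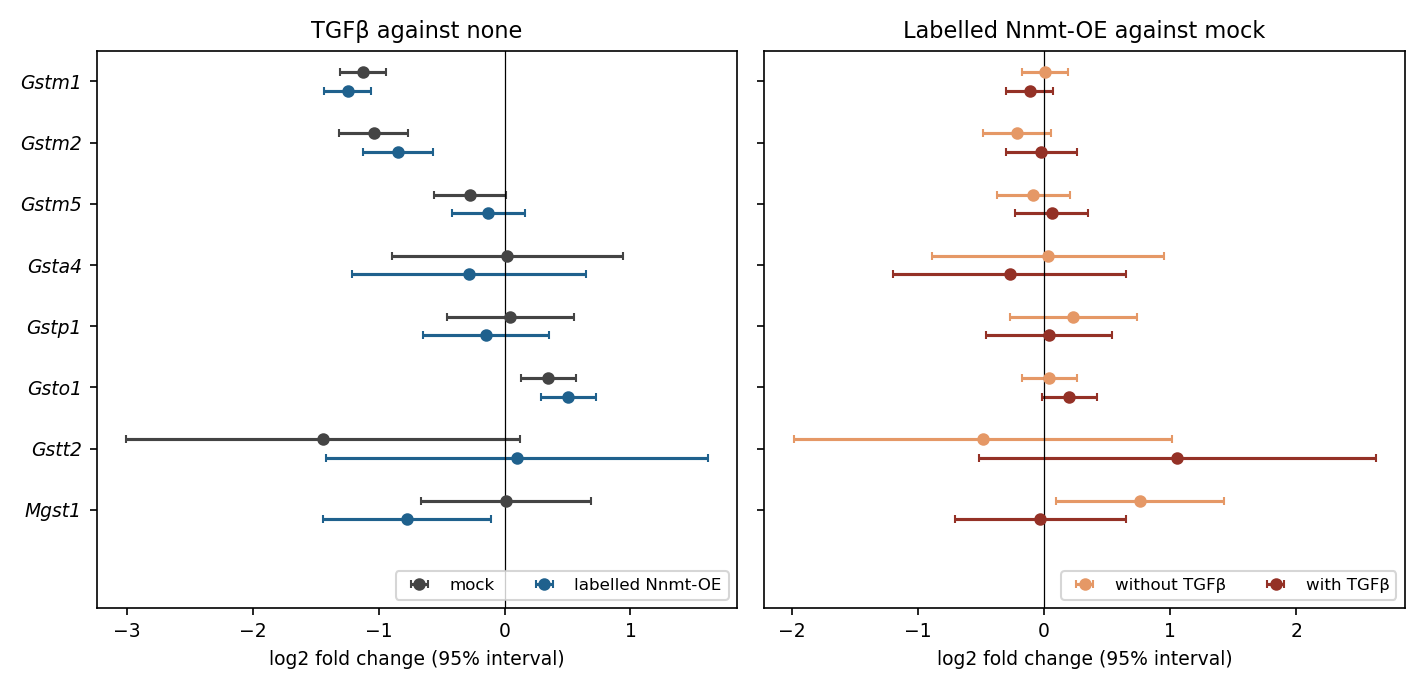
Log2 fold change (x axis) with its 95% interval for the 8 tested members (y axis), for TGFβ against none (left) and labelled Nnmt-OE against mock (right). On the left the labelled Nnmt-OE values lie below 0 for Gstm1 and Gstm2 and above 0 for Gsto1, with the mock values drawn beside them as a description, and on the right the intervals include 0 for all members except Mgst1 without TGFβ.

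The make-up of the family's reads moved with these genes. Gstm1 gave 71.9% of the members' reads in labelled Nnmt-OE and 52.4% with TGFβ, while Gsto1 gave 10.4% and 25.4%. In mock cells Gstm1 gave 71.7% and 56.3%, and Gsto1 10.1% and 22.0%. There were 5.61 to 8.25 reads of Gstm1 for each read of Gsto1 in the 6 untreated libraries and 1.98 to 2.94 in the 6 treated ones. The ratio of Gstm1 to Gstm2 was 8.91 to 10.3 in labelled Nnmt-OE and 6.38 to 8.57 with TGFβ. In mock it was 8.13 to 8.49 untreated and 7.67 to 8.04 with TGFβ.

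**Figure D3:**
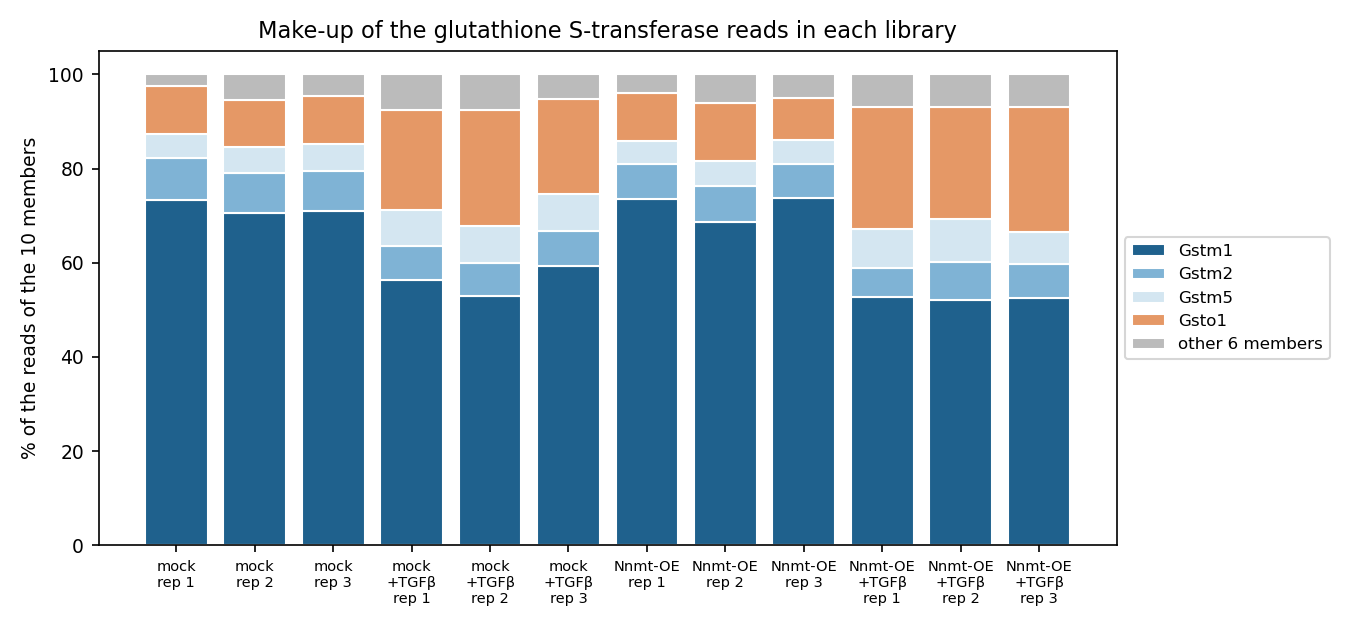
Percent of the reads of the 10 members (y axis, stacked to 100) that each gene gave in each of the 12 libraries (x axis). Gstm1 takes the largest part in every library, and the Gsto1 part is larger in each TGFβ library than in each untreated one.

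Over the 12 libraries, log2 CPM of Gstm1 and Gstm2 had a Pearson correlation of 0.97, and of Gstm1 and Gsto1 of -0.91. The libraries share treatments, and after the group means were taken out the values were 0.55 and -0.30. The 5 tested genes most like Gstm1 over the 12 libraries were Itm2b (0.985), App (0.981), Ndrg1 (0.98), Cp (0.975) and Mxd4 (0.975). Those most like Gstm2 were Por (0.985), Itm2b (0.973), Gpx3 (0.972), Kctd12 (0.97) and Gstm1 (0.97).

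The construct gave no call among the members. Without TGFβ, edgeR called 0 of 8 members, with 1 at an unadjusted p under 0.05, and DESeq2 and limma-voom called 0. Over all genes 0.0388% were called, 5.84% had an unadjusted edgeR p under 0.05, and 10.9% did not overlap between the groups. Gstm1 averaged 824 ± 64 CPM in mock against 829 ± 95 CPM under the construct (SD, n = 3), a log2 difference of 0.01 with a 95% interval of -0.17 to 0.19. Gstm2 was the 1 member whose groups did not overlap, lower in labelled Nnmt-OE (99.2 ± 9.9 against 85.6 ± 3.8 CPM), and it did not pass (log2 -0.21, 95% interval -0.48 to 0.05, edgeR adjusted p = 0.881). Mgst1 had the member value with the unadjusted p under 0.05 (log2 0.76, 95% interval 0.10 to 1.43, edgeR adjusted p = 0.813).

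With TGFβ in both arms, edgeR called 0 of 8 members (0 at an unadjusted p under 0.05), and so did DESeq2 and limma-voom. Of all genes 0.0233% were called and 4.46% had an unadjusted edgeR p under 0.05. The groups did not overlap for 10.2% of all genes, and no member was among these. Gstm1 differed by -0.11 (95% interval -0.30 to 0.07), Gstm2 by -0.02 (-0.30 to 0.26) and Gsto1 by 0.20 (-0.01 to 0.42) on the log2 scale. The difference between the TGFβ effects of the 2 constructs, which also uses the mock libraries, was called for 0% of all genes by edgeR, with 501 of them at an unadjusted p under 0.05 and 0 calls by DESeq2 or limma-voom. Its 95% interval was -0.38 to 0.13 for Gstm1, -0.20 to 0.58 for Gstm2, -0.15 to 0.47 for Gsto1 and -1.74 to 0.16 for Mgst1. These intervals leave room for differences of that size.

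Close copies bear on how far a level belongs to 1 gene. The 7 mu-class genes lie together on chromosome 3 in the order Gstm5, Gstm7, Gstm6, Gstm3, Gstm2, Gstm1 and Gstm4. Of the neighbours that are not members, Gstm7 ranged from 7.27 to 25.8 CPM, Gstm6 reached at most 1.60 CPM and Gstm3 had 2 reads in all. Gstm7 had log2 differences of -0.75 in labelled Nnmt-OE (edgeR adjusted p = 0.302) and -0.87 in mock.

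**Figure D4:**
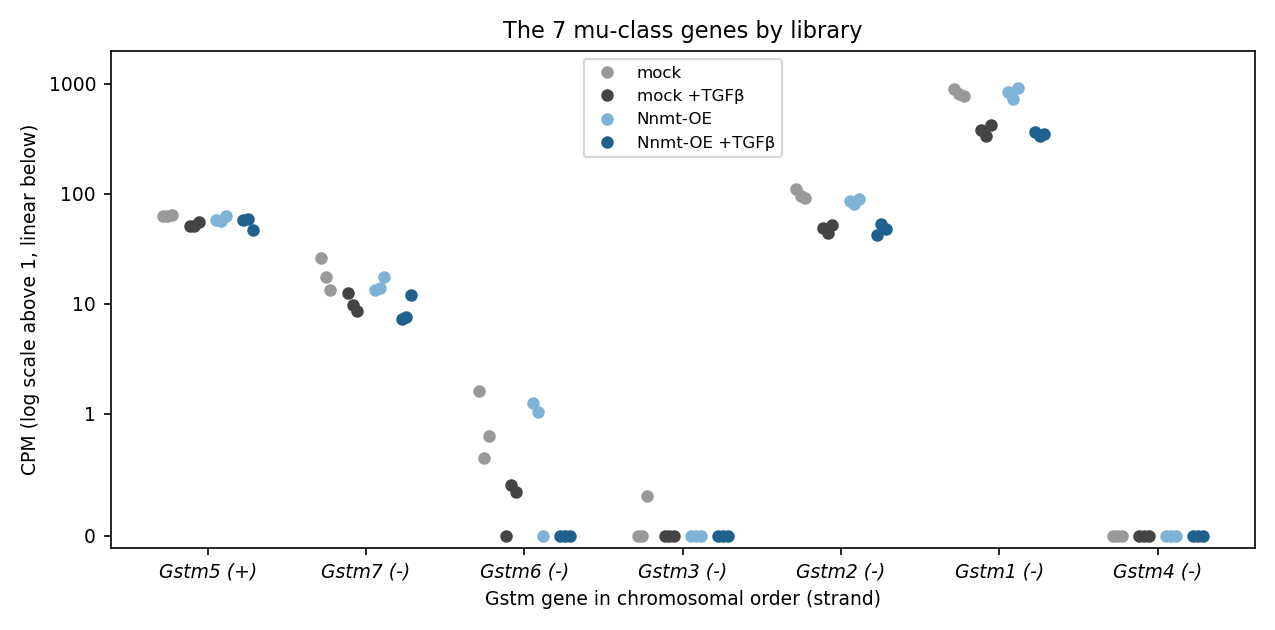
CPM (y axis, logarithmic above 1 and linear below, so that 0 can be shown) of the 7 mu-class genes in chromosomal order (x axis, strand in brackets), 1 point per library, coloured by group. Gstm1 and Gstm2 stand lower in both TGFβ groups, and Gstm4 lies at 0 in all 12 libraries beside its abundant neighbour Gstm1.

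In the last 500 bases of the transcripts, where 3′ tags fall, 451 words of 50 bases were compared with all other transcripts. For Gstm1 0.887% of the words also occurred in another gene (Gstm3), for Gstm2 3.1% (Gm6665) and for Gstt2 1.11% (Glo1 and Ube2d2a). For Gsto1, Gstm4, Gstm5, Gsta4, Gstt1 and Mgst1 the share was 0. For Gstp1 it was 75.2%, all of them shared with Gstp2, whose coding sequence is 98.1% identical, and 60.5% with Gstp-ps. Gstp2 had 1 read in all libraries, and the sources used here do not say how reads with several matches were treated, so the Gstp1 level is uncertain. With Gstm1 to Gstm7 summed as 1 gene, the log2 difference with TGFβ was -1.11 in labelled Nnmt-OE (edgeR adjusted p = 5.05e-12) and -1.04 in mock. Mean levels in mock were 824 CPM for Gstm1, 99.2 for Gstm2, 62.8 for Gstm5 and 18.9 for Gstm7. The sum therefore mostly follows Gstm1 and says little on shared reads.

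Of 5 lists of genes around the family, 3 had no call and 2 had calls in labelled Nnmt-OE cells given TGFβ. These lists were drawn up with earlier results known, and their counts stand beside the 1.4% of all genes that passed. Of all genes 11.1% had an unadjusted p under 0.05 in this edgeR test. Of 28 other genes of the superfamily 12 were tested and edgeR called 0 (3 at an unadjusted p under 0.05), with a median of -0.08. The microsomal enzyme gene Mgst2 stood at -0.48 (edgeR adjusted p = 0.13) and the chloride intracellular channel gene Clic4 at 0.30 (edgeR adjusted p = 0.142). Of 23 tested genes for glutathione synthesis, recycling and breakdown edgeR called 0 (2 at an unadjusted p under 0.05), with a median of 0.03. The plasma glutathione peroxidase gene Gpx3 stood at -0.27 (edgeR adjusted p = 0.0722), the glutathione reductase gene Gsr at -0.33 and the mitochondrial glutathione carrier gene Slc25a39 at -0.20.

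Conjugate export and the mercapturate pathway had 1 rise among 11 tested genes, with a median of -0.04. Abcg2, an efflux transporter, rose by 0.66 (edgeR adjusted p = 0.0327). The aminoacylase gene Acy3 stood at -0.80 (edgeR adjusted p = 0.0666) and the aminopeptidase gene Anpep at -2.51 (edgeR adjusted p = 0.179). Of 14 tested transcription factor genes, edgeR called 0 (1 at an unadjusted p under 0.05), with a median of -0.03. Nfe2l2, which encodes NRF2, stood at -0.42 (edgeR adjusted p = 0.0516), the gene of its competitor Bach1 at -0.37 and its relative Nfe2l1 at -0.14. Among 22 tested genes for other detoxification enzymes 1 rose and 3 fell, with a median of -0.02. The cytochrome P450 gene Cyp1b1 rose by 1.29 (edgeR adjusted p = 0.00621). The methyltransferase gene Inmt fell by 2.29 (edgeR adjusted p = 3.27e-06) and the epoxide hydrolase gene Ephx1 by 0.46 (edgeR adjusted p = 0.0219).

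**Figure D5:**
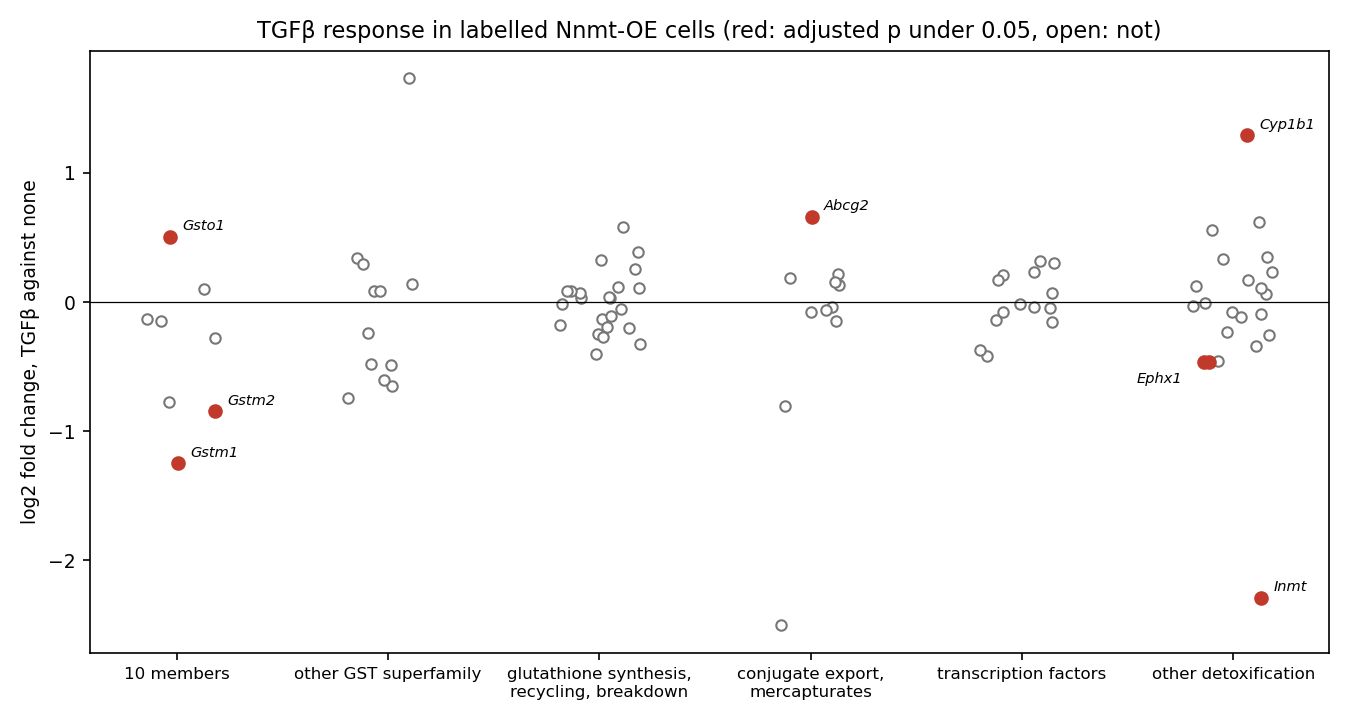
Log2 fold change with TGFβ in labelled Nnmt-OE cells (y axis) of every tested gene of the family and of 5 lists around it (x axis, points spread sideways for clarity), with genes past the threshold filled, and named where the text reports them. Filled points are 3 of 8 members, 1 of 11 export genes and 4 of 22 other detoxification genes, beside 1.4% of all genes tested, and the other 3 lists have none. The falls of Gstm1 and Gstm2 in mock cells were known when the family was chosen.

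In mock cells genes of the same lists are described by their log2 differences alone. Gstcd stood at 0.58, the export pump gene Abcc1 at 0.47 and Cyp1b1 at 1.31. In labelled Nnmt-OE cells Gstcd was at 0.14 and Abcc1 at 0.19, and neither passed. Abcg2, which rose in labelled Nnmt-OE cells, stood at -0.13 in mock. Gstcd and Abcc1 were named for their mock values and Abcg2 for its value in labelled Nnmt-OE cells. The difference between the TGFβ effects of the 2 constructs was called by edgeR for 0% of all genes. Gpx3 stood at -0.45, Inmt at -2.28, the cytochrome P450 reductase gene Por at -0.50, Ephx1 at -0.47 and Nfe2l2 at -0.42.

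Some marker levels differed with the treatment. The summed level of the 18 tubular markers was 2015 to 2062 CPM in labelled Nnmt-OE and 1542 to 1698 CPM with TGFβ, and 1704 to 2006 CPM in mock and 1501 to 1537 CPM with TGFβ. Most of this sum is Aqp1, a water channel gene, which averaged 1125 CPM in labelled Nnmt-OE and 712 CPM with TGFβ. In these cells 2 of 8 tested tubular markers passed, Aqp1 and Cdh16, both lower, 4 of the 8 had positive log2 values, and the median was 0.03. The keratin gene Krt8 stood at 0.30, higher without overlap (edgeR adjusted p = 0.326), and at 0.45 in mock. The summed level of 7 fibroblast markers was 1.61 to 8.04 CPM in labelled Nnmt-OE and 10.7 to 16.1 CPM with TGFβ, with Col3a1 and Lum at 0 in every library. Most of it is Col1a1, a collagen gene (3.53 and 10.7 CPM on average). Of the 2 tested, edgeR called 0 (Col1a1 edgeR adjusted p = 0.0898, Col1a2 edgeR adjusted p = 0.179). An unadjusted p under 0.05 was reached by 2 of them and by 11.1% of all genes. In mock the summed level was 3.38 to 6.54 CPM untreated and 7.96 to 13.7 CPM with TGFβ. The part of these shifts in the member values was not tested. Podocyte markers summed to 203.5 to 244.2 CPM, nearly all from Podxl and Synpo, and leukocyte markers to 4.09 to 13.4 CPM. Mitochondrial transcripts gave 22280 to 31760 CPM, with 0 of 6 tested called by edgeR. Of the 9 listed, mt-Co3 and mt-Atp6 had 0 reads in every library and mt-Co2 had 1 read in all. Why these 3 had so few reads was not tested.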

How the data were processed

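Messenger RNA of 12 samples was made into 3′ tag libraries (QuantSeq forward), per the labels' protocols. The deposited table holds raw read counts per gene, made by the authors with STAR and HTSeq, per the submitters' processing notes, which name the human build GRCh38 although the identifiers are mouse Ensembl. For the mouse build, annotation, strand setting and versions, the sources used here give nothing. The 5 HTSeq rows that name no gene were dropped. Reads outside genes made up 26.4 to 28.8% of each library and ambiguous reads 0.603 to 0.679%, and the row for reads with several matches is 0 throughout. Symbols matched 55141 identifiers (99.4%).

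Samples were grouped by title. Counts of all 12 libraries entered 1 edgeR 4.0.16 fit (R 4.3.3) with a mean per group, TMM scaling and filterByExpr (minimum count 10, total 15), which kept 12897 genes. The robust quasi-likelihood test was used with Benjamini-Hochberg adjustment over all genes at 0.05. For genes from 10 CPM up, log2 fold changes had a median 95% half-width of 0.35. Counts are of reads, not molecules. Log2 CPM for correlations used a prior count of 2.

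The members and lists were chosen with earlier results of these data known. Named genes are all members, every list gene called, otherwise up to 3 per list with the smallest p, and the 5 most correlated with Gstm1 and Gstm2. Some genes that this rule covers are not reported here. Alternatives were DESeq2 1.42.0, limma-voom (limma 3.58.1), RLE scaling, library totals, no filter or a stricter one (1 CPM in 3 libraries and 50 counts), a replicate block, only the groups compared, each library left out, 3 libraries left out together, and summed Gstm and Gstp genes. Promoters came from RefSeq. Coding identity compared the longest open reading frames. On simulated counts for 12897 genes, TGFβ in labelled Nnmt-OE recovered 33.8% of 1.5-fold, 62.3% of 2-fold and 83.1% of 4-fold changes, with 7.94% of calls false. These recovery shares leave out changed genes that failed the filter in the simulated counts.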

Additional observations from a re-analysis of the deposited data

How the results depend on the processing

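In labelled Nnmt-OE cells the TGFβ falls of Gstm1 and Gstm2 passed under 22 of 22 and 21 of 21 alternatives (log2 -1.33 to -1.11 and -0.93 to -0.77). For Gstm1 these include the fit with the Gstm genes summed, and the -1.11 is the value of that sum. The Gsto1 rise passed under 19 of 21 (log2 0.45 to 0.57), and the 2 fits that lost it are given above. Counts over all genes moved more. For TGFβ in labelled Nnmt-OE the count of 180 was 295 with DESeq2, 351 with only the groups compared, and 97 (without Nnmt-OE replicate 3) to 305 (without mock replicate 1) when 1 library was left out. Without Nnmt-OE replicate 1 it was 109, and without Nnmt-OE with TGFβ replicates 1, 2 or 3 it was 104, 99 and 104. For TGFβ in mock the count of 184 was 306 with DESeq2, 92 with only the groups compared, and 98 (without mock with TGFβ replicate 2) to 188, with 115 without mock with TGFβ replicate 1. For the construct without TGFβ, 5 became 13 with no filter, 3 with only the groups compared, and 3 (without mock replicate 3 or Nnmt-OE replicate 1) to 6. For the construct with TGFβ, 3 became 1 without replicate 2 or 3 of mock with TGFβ or replicate 1 or 2 of Nnmt-OE with TGFβ. The causes were not tested. With a replicate block the counts were 168, 170, 4, 3 and 0 for these comparisons and the interaction, and member calls did not change. Over all tested genes, deviations from the group means correlated at -0.10 to 0.05 between same-numbered libraries. Between other-numbered libraries of different groups they correlated at -0.06 to 0.09. Pairing by number is not seen in these values, but they cannot exclude a shared culture or day, since counting noise also enters them. Values of low members that did not pass moved with 1 library: Gsta4 with TGFβ in labelled Nnmt-OE was -0.89 without Nnmt-OE with TGFβ replicate 2, and Mgst1 in mock was -0.37 without mock with TGFβ replicate 2. Over all reads in the table, members gave 0.0815% (mock), 0.0484% (mock with TGFβ), 0.0824% (labelled Nnmt-OE) and 0.0480% (with TGFβ). Each group has 3 libraries, and genes under about 10 CPM have wide intervals.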
